A study of Mus musculus with 12 samples.

Results

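The regions described here are stretches of intron that carried a called peak of 5-hydroxymethylcytosine (5hmC) in all 3 hippocampal DNA libraries of restrained mice and in none of the 3 libraries of unrestrained mice. Peaks of the 6 deposited lists on chromosomes 1 to 19 were pooled, and peaks sharing at least 1 bp were merged into 74401 regions. Of these, 27499 lay inside a transcript body without touching an exon or any base within 1 kb of a transcript start. The stress-only pattern was met by 244 of them (0.887% of all intronic regions), and these lay in 235 host genes. The members were chosen by the presence and absence of peaks, so the peaks inside them are given as a description and without a test. All coordinates are mm9, as in the deposited files.

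The TET enzymes make 5hmC by oxidising methylated cytosine. It is abundant in neurons, where it is found mostly in the bodies of expressed genes, and introns make up most of the length of those bodies. Introns also hold enhancers and other regulatory elements, which are known to carry 5hmC in brain.

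All mice were male C57BL/6. Stressed mice (6 animals) were held in a conical tube for 30 min, starting 2 h into the light phase, and were then left alone in a clean cage for 1 h. Control mice (5 animals) were naive and were taken from their cage when the restraint of the others began, so stress and the later time of day at collection cannot be told apart. Both groups received brief isoflurane anaesthesia before whole hippocampus was punched from the frozen brain. DNA was pooled from 2 mice per library except in 1 library, and RNA of the same pools was summarised in 1 table per group. The protocol gives an age of 7 weeks and the sample tags give postnatal day 28. The labels report about 25 to 35 M uniquely mapped reads for each 5hmC library (M, 1e6 reads) but no value per library. On chromosomes 1 to 19 the stress lists held 15177, 27784 and 31636 peaks and the control lists 17176, 27897 and 16303. The lists thus differed in length within each group by more than 1.5 times. In the RNA tables all 8 markers of excitatory neurons, all 8 of dentate granule cells and all 6 of the CA1 field were at a mean of at least 1 FPKM, a level per transcript length and per mapped fragments. So were 5 of 6 markers of the CA3 field, all 12 of oligodendrocytes and all 8 of thalamus and neighbouring tissue. This minimum therefore does not tell hippocampus from its neighbours.

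The stress-only pattern was rare among intronic regions, and so was its mirror image. A peak in a single library was the most frequent pattern, with 8084 regions from 1 stress list and 7919 from 1 control list. Control-only regions, with a peak in 3 of 3 control and 0 of 3 stress lists, numbered 107 (0.389% of intronic regions), and 385 intronic regions had a peak in all 6 lists. In introns the stress-only regions outnumbered the control-only ones by a ratio of 2.28. It was 2.39 between genes, 3.85 at promoters and 6.74 on exons, and introns held 28.8% of all 847 stress-only regions but 38.8% of the 276 control-only regions. When each list was cut to its best-scoring peaks, equal in number across libraries, there were 128 stress-only and 133 control-only intronic regions (ratio 0.962), and with every list shortened to the same covered length there were 95 and 158 (ratio 0.601). The excess over the control-only pattern in introns was thus turned around once the lists had equal length. The number of stress-only intronic regions was 1173, 589 and 532 without stress replicate 1, 2 and 3, where a region needs only 2 stress peaks. It was 336, 565 and 337 without control replicate 1, 2 and 3, where a control-only region needs only 2 control peaks. Control-only regions then numbered 473 without control replicate 1 (ratio 0.710) and 443 without control replicate 3 (ratio 0.761). Without stress replicate 1 the ratio was 7.93. The rule was eased only for the group that lost a library, so these ratios cannot be set against the main one.

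**Figure D1:**
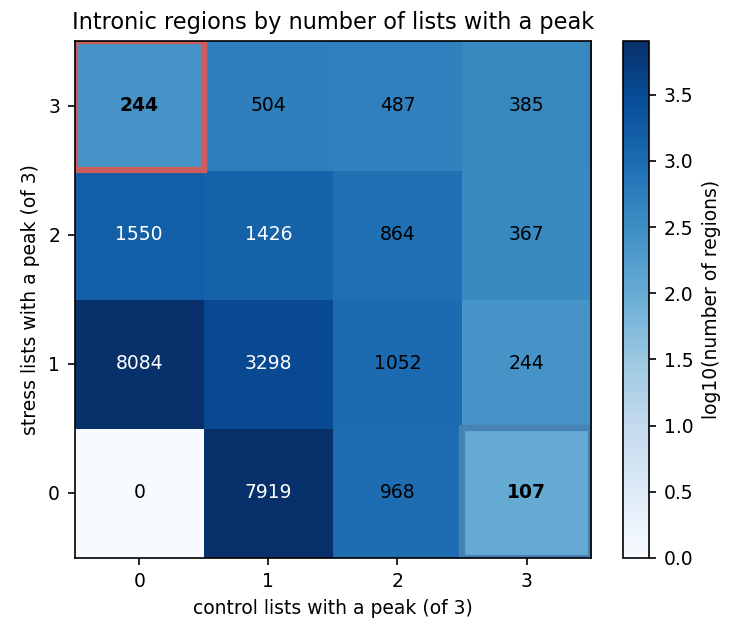
Number of intronic regions on chromosomes 1 to 19 by how many of the 3 stress lists (vertical) and 3 control lists (horizontal) held a peak, coloured by log10 of the number. The stress-only cell (red frame) holds 244 regions and the control-only cell (blue frame) 107, against 8084 and 7919 for a peak in a single list.

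Regions just outside the pattern were more numerous than the members. A peak in all 3 stress lists and in 1 control list was found at 504 intronic regions. Control replicate 2, the control list with the most peaks, supplied the control peak at 322 of them, replicate 1 at 90 and replicate 3 at 92. A peak in 2 stress lists and no control list was found at 1550 regions. Stress replicate 1, the shortest of the stress lists, was the missing one at 926 of these, replicate 2 at 338 and replicate 3 at 286. The median length of a region was 1348 bp for the members, 1472 bp for the 504 regions with 1 control peak and 1186.5 bp for the 1550 regions with 2 stress peaks. At the limit of 1 kb from a start site, the nearest members lay 1172 bp (Jag2, a Notch ligand), 1208 bp (Gatad2a, a subunit of the NuRD chromatin complex) and 1241 bp (Gde1, a phosphodiesterase of glycerophospholipids) away.

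The median score of the members' peaks lay near the middle of each list, over a wide spread. The authors' score of each peak was ranked within its own list, so that a percentile of 50 is the middle of that list. The members' peaks had a median percentile of 52.2 in stress replicate 1, 56.5 in replicate 2 and 58.9 in replicate 3. Regions with a peak in all 6 lists ranked higher in the same 3 lists, at 74.9, 86.5 and 83.8. Control-only regions also ranked near the middle of their own lists, at 53.5, 55.2 and 56.4 in control replicates 1 to 3. At 63 of the 244 members the peak was at or above the middle of the list in all 3 stress libraries, and at 13 it was at or above the 75th percentile in all 3. Across the 244 members the percentiles of any pair of stress lists were weakly related (Pearson r 0.184, 0.234 and 0.200, a description over regions that share libraries). A member held 1 peak per stress library, except the region in Frzb, a secreted Wnt antagonist, with 2 in stress replicate 3. The median share of a member covered was 80.8%, 90.04% and 87.9% in replicates 1, 2 and 3.

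**Figure D2:**
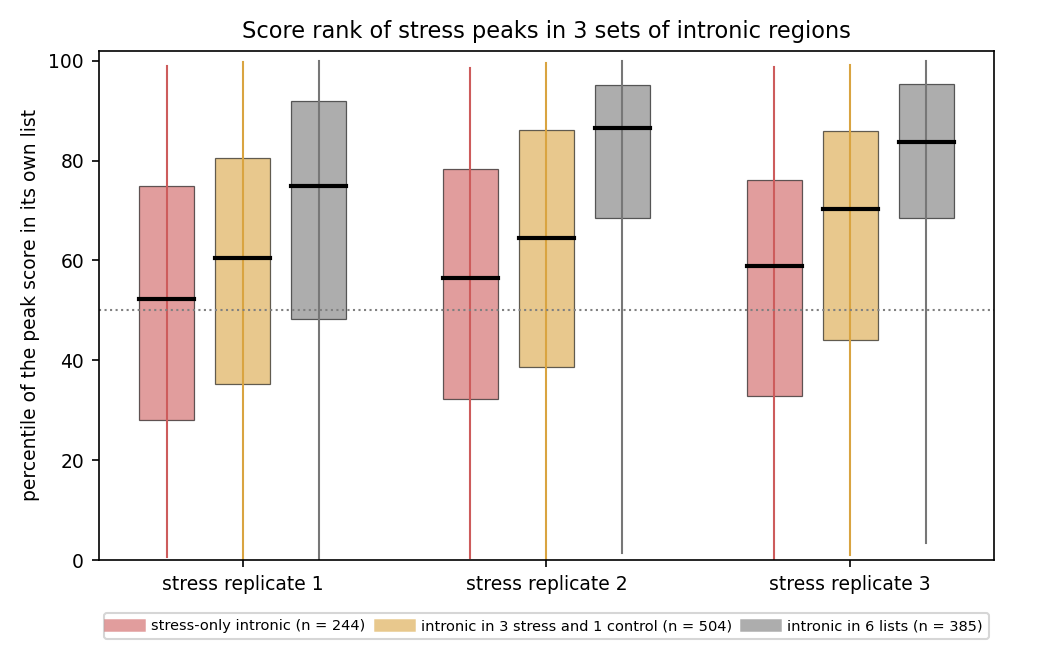
Percentile of the peak score within its own list for stress replicates 1 to 3, with the median (line), the quartiles (box) and the lowest and highest value (thin line), for the 244 stress-only intronic regions, the 504 with 1 control peak and the 385 found in all 6 lists. Of the 3 sets shown, the stress-only regions have the lowest median in each list, from 52.2 to 58.9.

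The members lay between 58 and 117349 bp from the nearest control peak. The nearest control peak lay a median of 10019 bp from the edge of the region, within 1 kb at 15 members and within 10 kb at 122. The same distances were not taken for other intronic regions, so they cannot be called a trait of the members. The region in the first intron of Dlgap1, a scaffold of the postsynaptic density, ended 58 bp from a control peak. The farthest from any control peak was the region in Pdilt, a testis-enriched chaperone gene, at 117349 bp.

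The 8 regions with the best-ranked weakest peak lay in Ctnnd2, Myt1l, Nckap1, Gm10549, Cdc42bpa, Col18a1, Slc44a1 and Tcf4. Ctnnd2 encodes delta-catenin, which links cadherins to the dendritic cytoskeleton. Its region in intron 20 of 22 (chr15:30935915-30937462) scored 102.45, 115.88 and 124.57 in stress replicates 1, 2 and 3, the only member above the 90th percentile in all 3 lists. A control peak lay 101 bp from its edge. Myt1l encodes a zinc finger factor of neurons, and its region in intron 18 of 24 (chr12:30562693-30564389) scored 94.15, 97.56 and 106.64, with the nearest control peak 49932 bp away. Nckap1, a subunit of the actin-nucleating WAVE complex, held a region in intron 16 of 31 (chr2:80370821-80372878) with scores of 132.87, 110.16 and 97.06. Cdc42bpa encodes a kinase that acts below the GTPase Cdc42, and its region in intron 9 of 36 (chr1:181999574-182000923) scored 95.43, 100.32 and 92.63. Slc44a1 encodes a choline transporter, and its region (chr4:53522602-53523648) scored 95.49, 88.51 and 88.43. These 8 regions were between 1047 and 2058 bp long, and 7 of them lay in protein-coding genes.

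The 5 longest members lay in Pip5k1c, Prkca, Pard6g, Ksr1 and H2-DMa. Pip5k1c makes the membrane lipid PIP2 at synapses, and its region in intron 1 (chr10:80757217-80761911) spanned 4695 bp, starting 1500 bp from the transcript start. It scored 59.69, 106.00 and 80.10 in the 3 stress lists. Prkca, protein kinase C alpha, held a region of 4234 bp in intron 13 of 16 (chr11:107827974-107832207), with scores of 72.49, 68.64 and 103.46. Pard6g, a cell polarity protein, held one of 4219 bp, Ksr1, a scaffold of the ERK cascade, one of 4145 bp, and H2-DMa, which loads peptides on class II molecules, one of 3196 bp. The shortest lay in Asic2 (732 bp, an acid-sensing ion channel), Cubn (780 bp, a vitamin uptake receptor) and Clvs1 (787 bp, a lipid-binding protein of vesicles). The Asic2 region was also among the weakest, at 53.08, 52.07 and 50.08, beside a lowest possible score of 50 in every list. Of all members, 40 were over 2 kb and 37 under 1 kb.

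Among the 235 hosts, 10 held 2 stress-only intronic regions each and the others held 1. Akap6, an anchoring protein that tethers protein kinase A to membranes, held both of its regions in intron 1. The first (chr12:53819418-53821390) scored 58.70, 89.30 and 98.39 in stress replicates 1 to 3, and the second (chr12:53889654-53891866) scored 54.17, 52.18 and 52.50. A control peak lay 96 bp from the second region and 8001 bp from the first. A further stress-only region of 3235 bp in Akap6 touched an exon and is not counted here. Ece1, the protease that activates endothelin, also held its pair in intron 1 (chr4:137443447-137446515 and chr4:137453629-137456272). The scores there were 62.87, 75.22 and 56.59 at the first and 80.12, 76.23 and 58.93 at the second. Macrod1, which removes ADP-ribose from proteins, held regions of 2752 and 2572 bp in intron 3 of 10. The remaining hosts with 2 regions were Wwox (an oxidoreductase lost in tumours), Trak1 (transport of mitochondria along axons), Dclk1 (a microtubule-binding kinase), Bai3 (an adhesion receptor of synapses), Dnm3 (a dynamin of synaptic membranes), Tcf4 (a basic helix-loop-helix factor) and Magi2 (a synaptic scaffold). The bodies of these 7 genes spanned 108 kb (Trak1) to 1478 kb (Magi2).

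The other intronic regions of these 10 genes, which the rule did not use, did not follow one direction. In Akap6, 13 of 28 other intronic regions had a peak in more stress than control lists, 11 in more control lists and 4 in equal numbers. In Wwox the numbers were 23, 8 and 7 of 38, and in Magi2 21, 15 and 7 of 43. In Ece1 none of the 3 other regions had more stress peaks, and 2 had more control peaks. Outside the members, peaks covered 1.90%, 4.33% and 2.89% of the introns of Akap6 in stress replicates 1 to 3 and 1.75%, 2.01% and 4.06% in control replicates 1 to 3, so the groups overlapped. In Dnm3 they covered 2.38%, 2.35% and 3.81% in stress and 1.26%, 2.17% and 1.42% in control libraries, with every stress value above every control value. In Ece1 they covered 0%, 0% and 4.50% in stress and 1.95%, 3.57% and 1.32% in control libraries. These percentages are not scaled to the length of each list.

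**Figure D3:**
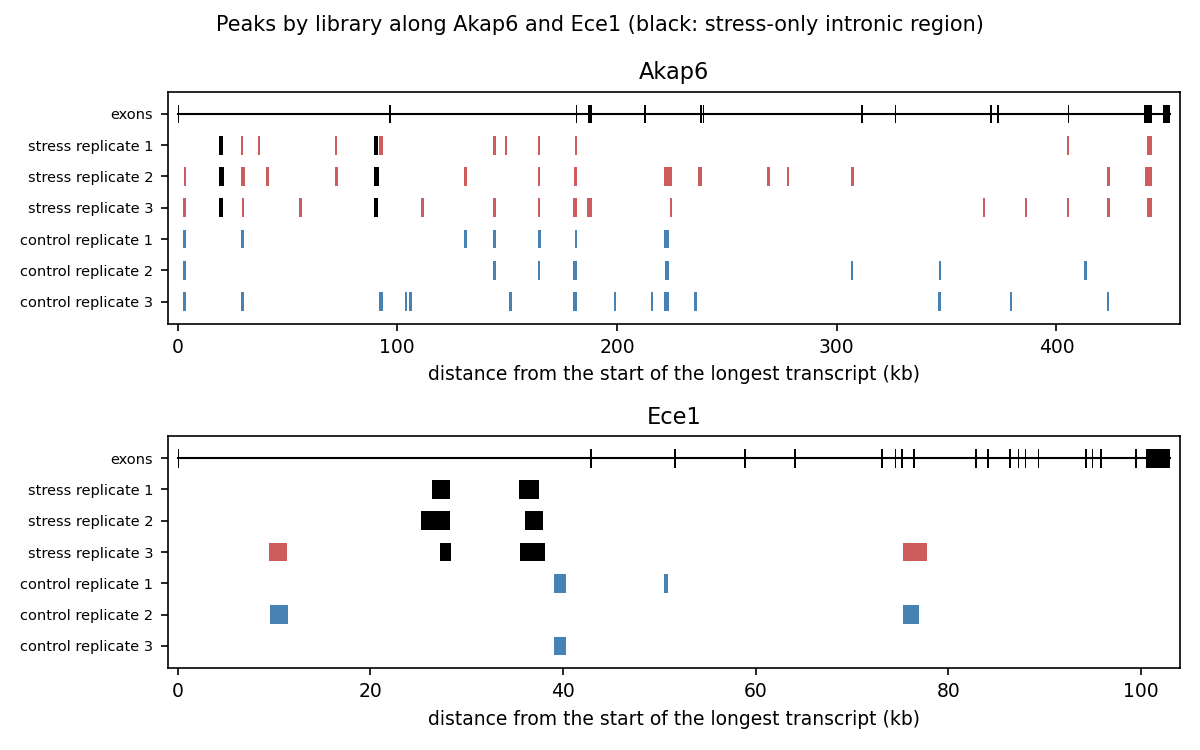
Peaks of each library along Akap6 (upper) and Ece1 (lower), by distance in kb from the start of the longest transcript, with exons on the top row, stress peaks in red, control peaks in blue and peaks of stress-only intronic regions in black. Both genes hold 2 such regions in intron 1, and both also show peaks shared by stress and control libraries.

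Outside the members, peak coverage of the host genes overlapped between stress and control libraries. Coverage is the share of bases under peaks, divided by the same share over all genes of at least 10 kb in the same library, which takes out the length of the list. For introns of host genes outside the members this ratio was 1.14, 1.10 and 1.15 in stress replicates 1 to 3 and 1.12, 1.17 and 1.15 in control replicates 1 to 3. The means were 1.13 ± 0.0283 and 1.15 ± 0.0275 (SD, n = 3 each; exact two-sided permutation p = 0.4). For exons of host genes the ratio was 1.04 ± 0.119 in stress and 1.14 ± 0.136 in control libraries (SD, n = 3 each; exact permutation p = 0.2). Within 1 kb of their start sites it was 1.22, 1.21 and 0.814 in stress and 0.281, 0.942 and 0.838 in control libraries (exact permutation p = 0.3, n = 3 each). In the intron sequence within 10 kb on each side of the members it was 0.804, 0.958 and 1.12 in stress and 1.09, 1.16 and 1.35 in control libraries (exact permutation p = 0.2, n = 3 each). The groups overlapped in all 4 measures, and the Benjamini-Hochberg adjusted p was 0.4 for each. With 3 against 3 libraries no p below 0.1 can be reached, so these tests could not pass 0.05, and they measure the spread between pools. The mean beside the members was lower in stress, but slightly higher with equal numbers of peaks per library (difference 0.0170) and with 50 kb on each side (0.0162). For exons the sign also turned with equal numbers of peaks (difference 0.0744).

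**Figure D4:**
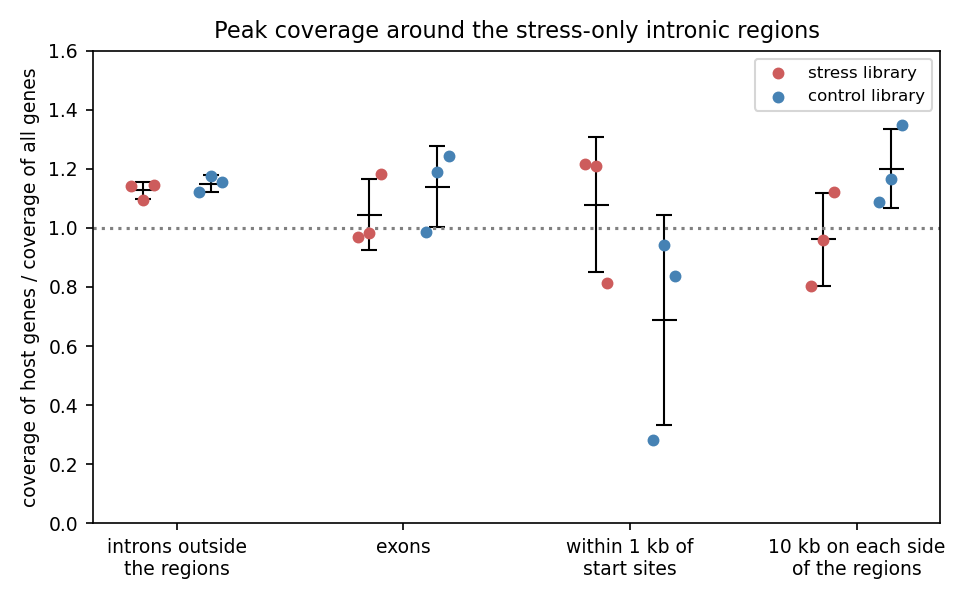
Peak coverage of the host genes divided by that of all genes of at least 10 kb, per library (points), with mean and SD (n = 3 per group), for introns outside the stress-only regions, exons, start sites and the 10 kb beside the regions. Stress and control libraries overlap in all 4 measures.

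The same held for the count of regions. Of 2133 other intronic regions in the host genes, 45.4% had a peak in more stress than control lists and 37.8% in more control lists. Over all 27255 intronic regions outside the members the shares were 44.2% and 39.1%. Of the 235 hosts, 7 (2.98%) also held a control-only intronic region, beside 0.791% of all genes of at least 10 kb. Among these 7 were Agap1 (an ARF GTPase-activating protein) and Cacna2d3 (a calcium channel subunit), both long genes. The 0.791% is not matched for length, and 56.6% of hosts were of at least 100 kb. Control-only regions were held by 2.56% of genes between 100 and 300 kb and by 5.86% of longer ones. There were 340 stress-only regions on exons or promoters, and 5 of the 235 hosts held one. They were Akap6, Arfgap3, Asap1, Col18a1 and Tnpo1. The share of all genes holding such a region was not computed, so this count is only a description.

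Long genes held most of the members. Of all 13403 genes of at least 10 kb on these chromosomes, 233 (1.74%) held a stress-only intronic region and 106 (0.791%) a control-only one. The share of hosts rose with body length, from 0.485% of genes between 10 and 30 kb to 1.44% up to 100 kb, 4.37% up to 300 kb and 11.7% of genes of 300 kb or more. Control-only regions followed the same order, at 0.109%, 0.542%, 2.56% and 5.86%. The median host body was 119166 bp for a stress-only region, 178225 bp for a control-only region and 123979 bp for an intronic region found in all 6 lists. Over all intronic regions it was 148379 bp, so by this median the members lay in shorter genes than intronic regions in general. The longest host was Fhit (1612 kb, a nucleotide hydrolase at a fragile site) and the shortest Degs1 (6.99 kb, an enzyme of ceramide synthesis). Per Mb of intron, members were densest on chromosome 9 (0.458, 22 regions) and sparsest on chromosome 19 (0.121, 3 regions).

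Within their genes the members were placed much as other intronic regions were. By the longest host transcript, 90 members (36.9%) lay in intron 1, against 36.2% of all intronic regions, 38.3% of control-only ones and 43.4% of those in all 6 lists. Their median position was 38.6% of the way from the start to the end of the transcript, where all intronic regions had 41.0%. A start site of the host lay within 10 kb of 57 members (23.4%), against 20.0% of all intronic regions and 29.1% of those in all 6 lists. The median distance was 41745 bp for members and 45250 bp for all intronic regions. The members farthest from a start were in Fhit (1232274 bp), Rbfox1 (1104239 bp, a neuronal splicing factor) and Gpc6 (928781 bp, a glypican). Hosts on the plus and the minus strand were about equal in number, at 123 and 121 regions. These shares are descriptions, since regions of one library are not replicates.

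Host genes included several parts of the machinery of synapses and signalling. Of 695 genes on 16 lists of pathways, 27 held a member (3.88%). All 27 were among the 586 list genes of at least 10 kb, a share of 4.61% beside 1.74% of all genes of that length. Among list genes of 300 kb or more the share was 10.9%, where it was 11.7% of all genes of that length, and between 100 and 300 kb it was 4.19% beside 4.37%. Shorter list genes stood at 2.26% beside 1.44% (30 to 100 kb) and 0.952% beside 0.485% (10 to 30 kb). Shares given below for single lists are over list genes of at least 10 kb, beside the same 1.74%. They rest on few hosts each and are not matched for length.

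Among 49 genes for synaptic adhesion and scaffolds, the hosts included Magi2, Dlgap1 and Homer2, which build the postsynaptic density, and the adhesion gene Lphn3. Their control and stress RNA levels were 12.4 and 13.8 FPKM for Magi2, 71.4 and 77.6 for Dlgap1, 6.95 and 8.08 for Homer2, and 14.02 and 14.7 for Lphn3. Of 26 glutamate receptor genes only the kainate receptor subunit gene Grik4 was a host (4.17% of those of at least 10 kb). Its region of 2270 bp (chr9:42443703-42445972) scored 68.82, 64.76 and 73.67. None of 22 GABA and glycine receptor genes was a host. The lists of presynaptic release and of axon guidance and cadherins had 1 host each, Dnm3 (of 48) and Cdh13 (of 68, an anchored cadherin). These were 2.27% and 1.49% of the list genes of at least 10 kb, and each list had 2 control-only hosts.

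Of 51 voltage-gated channel genes, 4 were hosts (8.16% of the 49 of at least 10 kb). They were Cacna1i (a T-type calcium channel), Cacna2d3 and Cacnb4 (auxiliary calcium channel subunits) and Scn3b (a sodium channel subunit). Cacna2d3 was also a control-only host. Calcium and protein kinase C signalling had 3 of 32, Prkca, Itpr1 (the IP3 receptor that releases stored calcium) and Ppp3r1 (the regulatory subunit of calcineurin). These were 9.68% of the 31 list genes of at least 10 kb, and Plcb1 was a control-only host. The region in Itpr1 lay in intron 46 of 61 (chr6:108426683-108427998) with scores of 63.58, 59.54 and 81.04. The region in Ppp3r1 (chr11:17089681-17090866) scored 79.44, 78.16 and 63.38. Of 55 genes of the cAMP and protein kinase A pathway, Akap6 and Creb1 were hosts (3.85% of the 52 of at least 10 kb). Adcy5, Pde10a and Pde4d were control-only hosts. Creb1 encodes the activity-regulated factor CREB, and its region in intron 1 (chr1:64593846-64594846) was weak in stress replicate 1, with scores of 50.84, 59.76 and 67.92. Crebbp, which encodes a coactivator of CREB, held no member.

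Of 37 regulators of ARF GTPases, which control membrane traffic, 4 were hosts, namely Agap1, Arfgap3, Asap1 and Cyth3. These were 11.4% of the 35 list genes of at least 10 kb, and Agap1 and Psd3 were control-only hosts. Of the regions in these 4 hosts, that in Arfgap3 was the longest (2816 bp, chr15:83134183-83136998), with scores of 78.79, 121.46 and 56.07. Histone-modifying enzymes had 2 of 71 (3.33% of those of at least 10 kb), the demethylase-family gene Jmjd1c and the methyltransferase gene Smyd3. Kat6b and Kdm2b were control-only hosts. The Smyd3 region of 3126 bp (chr1:181142357-181145482) scored 72.17, 81.49 and 109.62 and lay 47186 bp from any control peak. The list of Wnt, TGF-beta and growth factor signalling had 2 of 48 (4.35% of those of at least 10 kb). They were the kinase Gsk3b and the basic helix-loop-helix factor Tcf4. Tcf4 is a different gene from the Wnt factor Tcf7l2, which was a control-only host, so its place on that list does not make it a Wnt gene. It is counted among the 27 list hosts.

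Lists of genes tied to the stress response held no stress-only intronic region, but each had few genes of at least 10 kb. None of 43 glucocorticoid-induced genes, 44 immediate early and activity-induced genes, 29 genes of stress hormone signalling and 30 genes of the DNA methylation and hydroxymethylation machinery was a host. Of these, 22, 14, 19 and 21, in that order, were of at least 10 kb. Of all genes of that length 1.74% were hosts, with 0.485% between 10 and 30 kb and 1.44% between 30 and 100 kb. At such shares lists of this size can lack a host without differing from other genes. Sgk1, Fkbp5, Nr3c1 and Dnmt3a were thus not among the hosts. Among their genes of at least 10 kb the median body was 27.8 kb for the glucocorticoid-induced, 12.9 kb for the immediate early, 46.1 kb for the stress hormone and 27.9 kb for the DNA methylation genes, beside 31812 bp for all genes of at least 10 kb. Control-only intronic regions were held by Ncoa1, on the stress hormone list, and by Dnmt3b, on the DNA methylation list. Among 16 lists of cell type and region markers only Grik4, on the CA3 list, was a host of a stress-only one.

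Hosts were mostly expressed genes. A mean of at least 1 FPKM over the control and stress tables was reached by 185 of 235 hosts (78.7%), by 59.2% of all genes of at least 10 kb and by 70.3% of the hosts of any intronic region. For control-only hosts the share was 83.0% and for hosts of regions in all 6 lists 84.9%. The most abundant hosts were Ppp3r1 (control 277 and stress 282 FPKM), Rtn1 (255 and 269, a reticulon of the endoplasmic reticulum), Nckap1 (124 and 137), Map2 (97.4 and 103, a dendritic microtubule protein) and Fkbp1a (101 and 89.3, an immunophilin). Another 25 hosts (10.6%) were under 0.1 FPKM, among them Cubn, beside 23.1% of all genes of at least 10 kb. The share was 13.6% for hosts of any intronic region, 6.60% for control-only hosts and 5.29% for hosts of regions in all 6 lists.

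RNA of the hosts differed little between the tables. The median log2((stress FPKM + 1)/(control FPKM + 1)) was 0.09 over the 185 hosts and 0.08 over all 11071 genes that passed the same minimum. Higher in the stress table were 146 of 185 hosts (78.9%), beside 69.4% of all genes, 81.8% of control-only hosts and 76.9% of hosts of regions in all 6 lists. On this scale 1 host was at least 2-fold higher (0.307% of all genes) and 0 were at least 2-fold lower (0.289% of all genes). The host past the 2-fold mark was Scn3b, which is listed at 0 in the control table and at 26.9 FPKM in the stress table, and an exact 0 can be a failed estimate. With 1 table per group there is no replicate and no test, and the pseudocount of 1 understates the change of low genes.

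Among hosts with a mean of 1 FPKM or more and above 0 in both tables, the highest differences were those of Bcl10 (NF-kappaB signalling), at 1.75 FPKM (control) and 3.11 FPKM (stress), and of Cyth3 (an ARF exchange factor), at 5.99 and 8.69. Rin2, which activates Rab5, was at 2.503 and 3.71, the ubiquitin ligase Rnf216 at 3.47 and 4.94, and the survival gene Bcl2l1 at 11.5 and 15.1. Nf2 (merlin), Mast4 and Tnik (a pair of kinases) followed with log2 differences of 0.35, 0.35 and 0.34. The region in Bcl10 (chr3:145590157-145591305) lay 2931 bp from its start and that in Cyth3 (chr5:144386086-144387432) 2770 bp from its start. The lowest among the same hosts were Rtn4ip1 (a mitochondrial protein), at 2.46 and 1.66 FPKM, and Mfsd7b (a haem exporter), at 1.59 and 1.14. Slc39a11 (a zinc transporter), Macrod1, Fam63a (a deubiquitinase), Wwtr1 (the transcriptional coactivator TAZ), Fkbp1a and Degs1 followed, with log2 differences between -0.25 and -0.17. Akap6 was at 19.9 and 22.4 FPKM and Ctnnd2 at 23.1 and 27.3.

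Markers of neighbouring tissue differed between the RNA tables, and their part in these values was not tested. The summed level of 10 choroid plexus markers was 233 FPKM (control) and 64.6 FPKM (stress), with none of the 5 at a mean of at least 1 FPKM above the median of all genes. For 12 oligodendrocyte markers it was 1675 and 1431 FPKM (1 of 12 above that median), and for 8 markers of thalamus and neighbouring tissue 43.7 and 55.5 (6 of 8). No marker of these 3 lists was listed at 0 in either table, and none was a host of a stress-only intronic region, though the thalamic markers Plekhg1 and Tcf7l2 were hosts of control-only ones. In whole tissue, fewer cells of a type and less RNA per cell cannot be told apart.

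**Figure D5:**
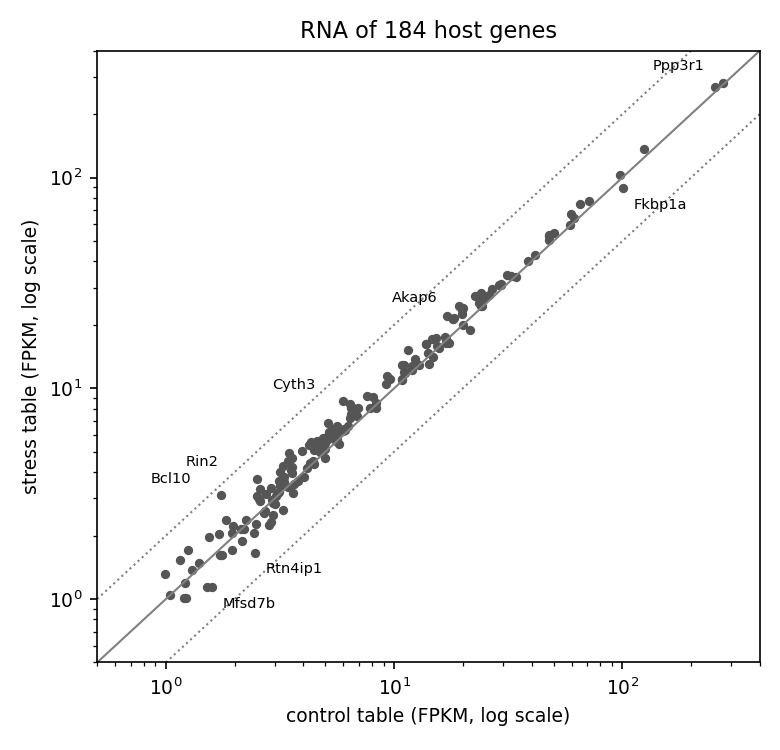
FPKM in the control (horizontal) and stress (vertical) tables, both on log scales, of the 184 host genes above 0 in both tables whose mean reached 1 FPKM, with the line of equality and dotted lines at a 2-fold difference. All points lie between the dotted lines, and Bcl10 is highest above the line of equality on the log2(FPKM + 1) scale.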

How the data were processed

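5hmC-enriched DNA was sequenced as 50 nt single reads in 3 stress and 3 control libraries, grouped by their titles. The authors deposited 1 peak list per library with a score per peak (lowest score 50). The submitters' processing notes name Bowtie 0.12.9 and mm9. Peak names are those MACS writes, but its version and any input library are not stated. The deposited RNA tables, 1 per group, give FPKM per RefSeq transcript from TopHat 1.0.12 and Cufflinks 2.1.1, per the submitters' processing notes. Merging, annotation with the transcripts of the control table, ranks and exact permutation tests (all 20 assignments of 6 libraries) were computed in Python 3.11.15 with a start-site distance of 1 kb and tested on simulated data. FPKM of isoforms were summed per gene. Scores were compared only as ranks within a list. A missing peak is not the absence of 5hmC.

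The members, the gene lists and the rule for named genes were chosen with earlier results of these data known. Named were hosts of 2 regions, of the 8 best-ranked, the longest, the shortest, the nearest to and farthest from a start, list members, the 8 highest and lowest RNA differences, the 5 most abundant hosts and 6 fixed genes. Frzb, Pdilt, Tnpo1 and the control-only hosts were named after their values were seen. No sequence was read, since the reference tables use GRCm38.p6 and the files mm9. Results for 1 host gene and 1 gene list are not reported here. Alternatives are given in the closing section.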

Additional observations from a re-analysis of the deposited data

How the results depend on the processing

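The number of stress-only intronic regions was 244, and its ratio to control-only regions 2.28. With an equal number of best-scoring peaks from each list these were 128 and 0.962, with the same covered length 95 and 0.601, and with the higher-scoring 50% of each list 123 and 1.98. Of the 244 regions, 86, 66 and 63 were found again in these 3 settings. Leaving out each library gave 336 to 1173 regions and ratios of 0.710 to 7.93, with the rule eased only for the group that lost a library. Covering at least 50% of a region, bridging gaps up to 200 bp, leaving out 2.5 kb around start sites, 500 bp around peak centres and exons up to 10% of a region gave 220 to 294 regions and ratios of 2.22 to 2.51.

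The difference in relative coverage between stress and control (stress minus control) was -0.0945 for exons of host genes and 0.0744 with equal numbers of peaks. For the 10 kb beside the regions it was -0.240, and 0.0170 with equal numbers of peaks and 0.0162 with 50 kb on each side. The other alternatives, leaving out any library included, kept the sign of all 4 differences. Equal replicate numbers did not pair the libraries, with correlations of 0.0116, 0.0160 and -0.00483 between same-numbered libraries. With the replicate block the p-values were 0.75 for introns (difference -0.0223), 0.25 for exons, 0.5 for start sites (0.392) and 0.25 beside the regions, where 3 pairs allow no p below 0.25 (exact permutation within pairs). The median RNA difference of hosts was 0.09 on the log2 scale and 0.0072 after centring on the median of all genes. The median length rose from 1348 to 1470 bp with the higher-scoring 50% of each list.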

Other observations

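Control-only intronic regions had 106 host genes, of which 7 (6.60%) were also hosts of stress-only regions, beside 1.74% of all genes of at least 10 kb. The 1.74% is not matched for length. Of the 106, 44 were between 100 and 300 kb and 29 were longer, and 4.37% and 11.7% of all genes of these lengths were stress-only hosts. On the pathway lists the control-only hosts included the cAMP genes Adcy5, Pde10a and Pde4d, the ARF regulators Agap1 and Psd3, the active zone genes Erc2 and Rims2, and the histone-modifying genes Kat6b and Kdm2b. Peak coverage within 1 kb of the start sites of these hosts was taken relative to all genes. It averaged 0.854 ± 0.108 over the stress and 1.38 ± 0.371 over the control libraries (SD, n = 3 each, no test made). The groups did not overlap, but these start sites span only 0.259 Mb. Peaks covered 0.805% of that sequence in stress replicate 1 and 1.51% in control replicate 3, so the separation rests on few peaks. The groups overlapped in the other 3 measures of these hosts, with means of 1.13 (stress) and 1.20 (control) for introns, 0.944 and 1.04 for exons, and 1.08 and 1.06 beside the regions. At the start sites of stress-only hosts it was 1.08 ± 0.23 and 0.687 ± 0.356, with overlap.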
